A study of Mus musculus with 16 samples.

Results

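A set of 10 genes of the BMP and TGF-beta pathways were examined in mouse jejunal enteroids that had lost functional MYO5B. The genes were taken by symbol from the count table, and all 10 of the 10 symbols were found among its 54532 genes: the target genes Id1, Id2 and Id3, the inhibitory Smads Smad6 and Smad7, the ligands Bmp2 and Bmp4, and the receptors Bmpr1a, Tgfbr1 and Tgfbr2. MYO5B, or myosin Vb, is a motor protein that carries vesicles to the apical membrane of enterocytes, and its loss causes microvillus inclusion disease. Enteroids are epithelial cultures grown in vitro from intestinal crypts, and RNA was sequenced from 16 cultures in 4 groups of 4.

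The control and MYO5BΔIEC enteroids came from the jejunal crypts of adult Vil1-CreERT2;Myo5b flox/flox mice, and the MYO5B(G519R) enteroids from Vil1-CreERT2;Myo5b flox/G519R mice, which keep 1 allele with a point mutation. The Vil1 promoter drives the recombinase in intestinal epithelial cells, and the MYO5BΔIEC and MYO5B(G519R) cultures received 4-OH-tamoxifen (1 µM, for 24 h) to switch it on. The labels give no treatment for the controls, the methods give them ethanol vehicle and a legend calls them healthy littermates. A direct effect of tamoxifen or of active Cre therefore cannot be told apart from loss of MYO5B in any comparison with control. The fourth group was MYO5BΔIEC enteroids that received 100 nM Compound-1, an agonist that prefers the lysophosphatidic acid receptor LPAR5, for 2 days. Differentiation medium held conditioned media of Noggin and of R-spondin at 5% each, and Noggin is a secreted protein that binds BMP ligands and keeps them from their receptors. According to the legend the 4 cultures of a group came from 4 mice.

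BMP and TGF-beta ligands bind pairs of type I and type II receptor kinases at the cell surface. BMP receptors such as BMPR1A phosphorylate SMAD1, SMAD5 and SMAD9, and the TGF-beta receptors TGFBR1 and TGFBR2 phosphorylate SMAD2 and SMAD3. Both sets join SMAD4 and then gather in the nucleus. The Id genes are direct BMP targets, and Smad6 and Smad7 are induced by the pathway and inhibit it. In the intestine BMP signals are strongest toward the villus tip, where they act on enterocyte maturation, and the crypt base is shielded from them by antagonists made by stromal cells.

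Libraries held 27804968 to 40101729 counts, so a count of 0 allowed at most 0.0736 to 0.111 CPM (counts scaled to the TMM library size, the unit of every level here unless FPKM is named), a limit that covers counting error only. The control culture 1 stood apart from the other controls, with a Pearson correlation of log2 levels of 0.967 to 0.971 to them against 0.991 to 0.994 among the other 3. Mitochondrially encoded genes took 6.41% to 10.4% of the counts in controls. Their share was 4.20% to 5.37% in MYO5B(G519R), 4.16% to 6.63% in MYO5BΔIEC without and 3.79% to 6.11% with Compound-1. With these genes left out of the library sizes the 9 members tested kept their direction and side of the threshold in all 5 comparisons, and calls against control over all genes numbered 4912, 4778 and 5286 beside 4910, 4778 and 5275 with them, for MYO5BΔIEC, MYO5B(G519R) and Compound-1. Myo5b itself averaged 189 ± 29.9 CPM over the 4 controls (± SD), 150 ± 17.0 over the MYO5B(G519R) cultures, and 128 ± 31.0 without and 111 ± 26.8 with Compound-1 over the MYO5BΔIEC cultures. The value of MYO5BΔIEC against control, −0.55 on the log2 scale, missed the threshold (edgeR quasi-likelihood adjusted p = 0.0503), and counts over the whole gene do not show whether the deleted part was transcribed. The cultures were epithelial by their markers. The summed level of 9 epithelial genes was 6993 to 14181 CPM, led by Krt8, while all 10 fibroblast and smooth muscle markers had a mean below 1 CPM, with Col3a1, Dcn, Lum and Foxl1 at 0 counts in every library.

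Per gene length, the receptors Bmpr1a and Tgfbr2 had the highest mean levels of the 10 transcripts in every group. In control enteroids Bmpr1a had 27.7 ± 3.59 FPKM (SD, n = 4; FPKM are the deposited levels scaled by gene length and library size), above Tgfbr2 at 12.4 ± 5.22 with no overlap of cultures. Tgfbr2, Id2, Id1 and Tgfbr1 followed in that order with ranges that overlapped from each gene to the next, down to 7.65 ± 0.605 FPKM for Tgfbr1. Bmp2 at 2.85 ± 1.71 FPKM, Id3 at 1.83 ± 0.358, Smad7 at 1.10 ± 0.220 and Smad6 at 0.636 ± 0.247 lay below them, and of these neighbors only Bmp2 and Id3 overlapped. Bmp4 was last in every group. In MYO5BΔIEC enteroids Bmpr1a (27.9 ± 6.09 FPKM) and Tgfbr2 (25.8 ± 4.07) overlapped, Bmp2 reached 9.65 ± 3.16 FPKM beside Id2 at 10.01 ± 3.30, and Tgfbr1 stood at 4.89 ± 0.60. In Compound-1-treated MYO5BΔIEC enteroids Tgfbr2 had the highest mean, 31.2 ± 9.21 FPKM, and Id1 was in the third place with 15.2 ± 5.09, each overlapping its neighbors.

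**Figure D1:**
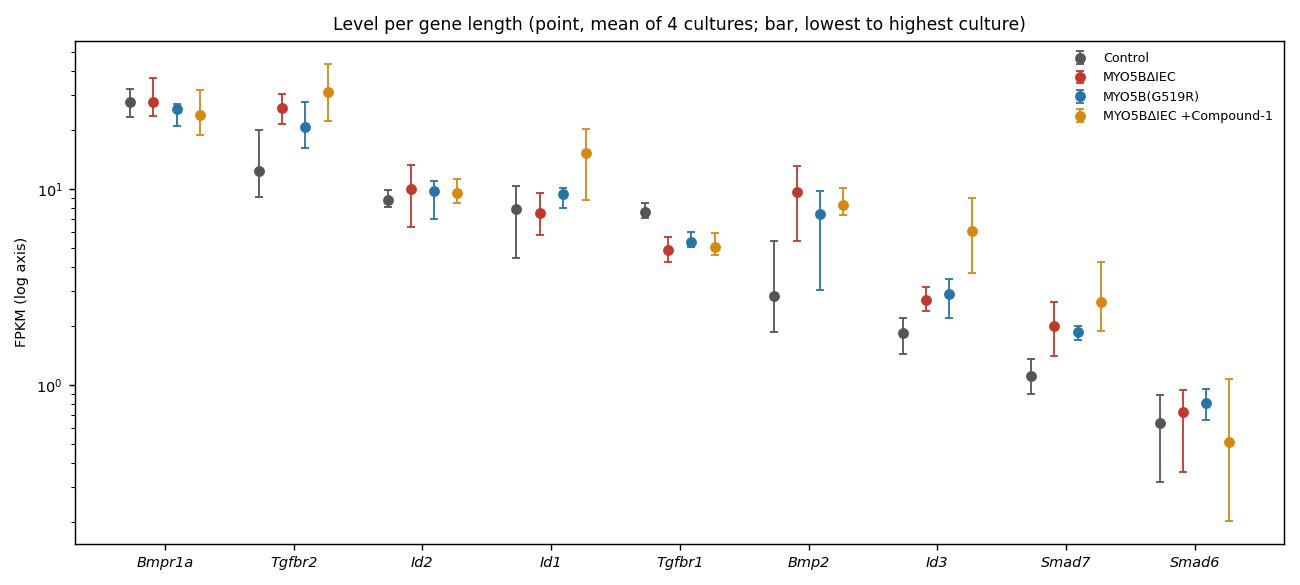
Level of 9 of the 10 genes in FPKM on a log axis, ordered by the control mean, with points for the mean of 4 cultures and bars from the lowest to the highest culture. Bmp4 is left out because it is listed at 0 in many cultures. Bmpr1a and Tgfbr2 lie at the top, Smad6 at the bottom, and the control mean of 2.85 FPKM for Bmp2 is below those of the other 3 groups.

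Against control, MYO5BΔIEC enteroids had more Bmp2, Tgfbr2 and Smad7 and less Tgfbr1. Of the 9 genes with enough counts to be tested, 3 rose and 1 fell at an adjusted p under 0.05 of the edgeR quasi-likelihood test (4 cultures each), where 27.4% of all 17951 genes tested passed (13.5% higher and 13.8% lower). The groups did not overlap for these 4 genes and for Id3, which was higher, and this was the case for 26.9% of all genes tested. In MYO5B(G519R) enteroids 2 of the 9 genes rose and 1 fell, where 26.8% of 17829 genes passed (13.1% higher and 13.7% lower), and Smad7 and Tgfbr1 did not overlap with control, as for 27.4% of genes. In Compound-1-treated MYO5BΔIEC enteroids 5 rose and 1 fell against control, where 29.4% of 17937 genes passed (15.7% higher and 13.7% lower), and 5 did not overlap, as for 27.9% of genes. Without control culture 1 the calls were 4, 5 and 6 members in MYO5BΔIEC, MYO5B(G519R) and Compound-1-treated enteroids. In these fits 7474 of 17783, 8146 of 17647 and 7459 of 17718 genes passed. Without control culture 3 the MYO5B(G519R) count was 1, where 2880 of 17631 genes passed. These 3 comparisons share the same 4 control cultures and are not independent of each other.

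**Figure D2:**
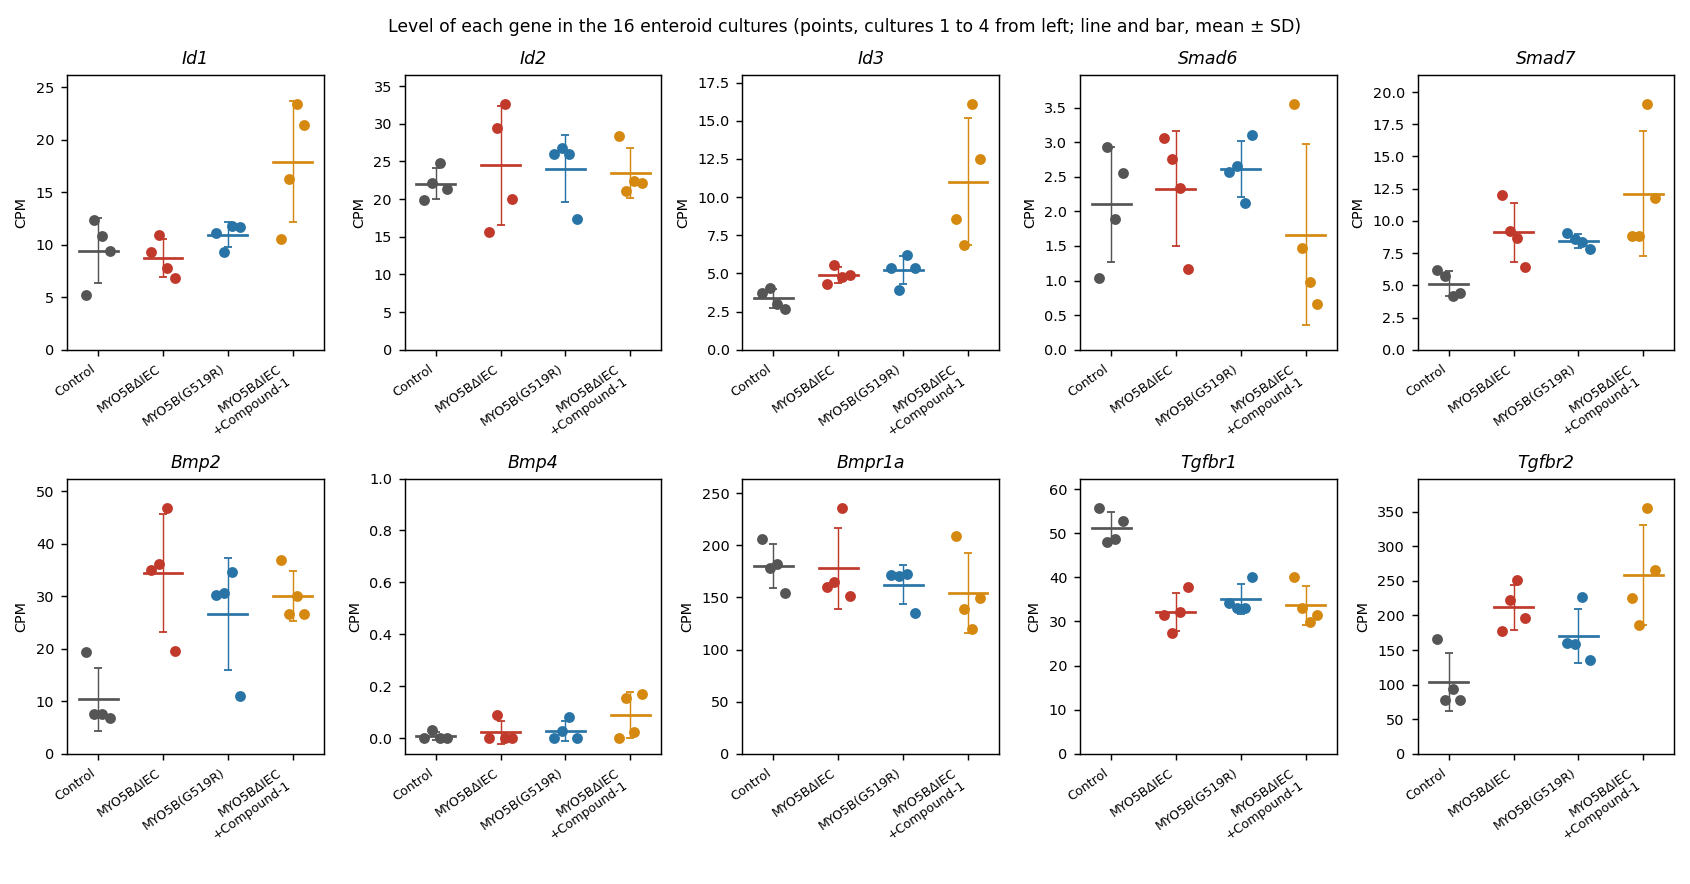
Level in CPM of each of the 10 genes in every culture, with the group on the x axis, points for cultures 1 to 4 from left to right, and a line and bar for the mean ± SD of 4 cultures. The control mean lies below those of the other groups for Bmp2 and above them for Tgfbr1, the mean of Id3 is highest with Compound-1, and Bmp4 is near 0 throughout. Axes start at 0 except for Bmp4, which has an axis up to 1 CPM.

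Bmp2, a ligand that enterocytes of the villus express, lies on chromosome 2 (133552159-133562885 in GRCm38). It had 19.4, 7.64, 7.53 and 6.85 CPM in the 4 control cultures and 35.04, 36.2, 46.8 and 19.6 CPM in MYO5BΔIEC. It had 30.2, 30.6, 34.7 and 11.01 CPM in MYO5B(G519R) and 36.9, 26.6, 30.1 and 26.6 CPM in Compound-1-treated MYO5BΔIEC cultures. The high control was culture 1, which lay just below the lowest MYO5BΔIEC culture and above culture 4 of MYO5B(G519R). Bmp2 rose 3.34-fold in MYO5BΔIEC (log2 1.74 ± 0.37 SE, edgeR adjusted p = 0.0070) and 2.90-fold in Compound-1-treated MYO5BΔIEC enteroids against control (1.53 ± 0.33, edgeR adjusted p = 0.0085). In MYO5B(G519R) it rose 2.57-fold (1.36 ± 0.42, edgeR adjusted p = 0.0373). That call was lost without any of control cultures 2, 3 and 4 or MYO5B(G519R) cultures 1, 2 and 3 (edgeR adjusted p = 0.0842 to 0.102). The log2 value in these fits was 1.21 to 1.30. Calls over all genes in the same fits numbered 2880 to 3235, beside 4778 with every culture. Without control culture 1 the edgeR adjusted p of Bmp2 was 0.0011. The call was also lost in limma on log2(FPKM + 1) (adjusted p = 0.0501).

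Bmp4, the ligand that intestinal stroma makes in abundance, lies on chromosome 14 (46383520-46390669) and was barely detected. The 16 libraries held between 0 and 6 counts each, and the highest level was 0.171 CPM, so the gene was not tested. Among 4 control libraries 3 had no count of Bmp4 and the other had 1. It overlaps the antisense gene Gm15222 and the gene Gm15217 on the other strand, and the sources do not say that the counting used strand.

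Tgfbr1, the type I TGF-beta receptor, had 55.7, 48.0, 48.8 and 52.8 CPM in control and 31.4, 27.3, 32.1 and 37.8 CPM in MYO5BΔIEC enteroids. It had 34.2, 33.0, 33.2 and 40.1 CPM in MYO5B(G519R) and 40.1, 33.1, 29.9 and 31.5 CPM in Compound-1-treated MYO5BΔIEC cultures. Every one of the 12 cultures with induced Cre lay below every control. Tgfbr1 fell 1.59-fold in MYO5BΔIEC (log2 −0.67 ± 0.13 SE, edgeR adjusted p = 0.0058) and 1.46-fold in MYO5B(G519R) (−0.55 ± 0.11, edgeR adjusted p = 0.0068). It fell 1.52-fold in Compound-1-treated MYO5BΔIEC enteroids against control (−0.61 ± 0.14, edgeR adjusted p = 0.0109). These calls were kept without any one culture.

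Tgfbr2, the type II receptor that binds TGF-beta first, moved the other way. It had 166, 77.1, 94.3 and 77.5 CPM in control and 177, 222, 252 and 196 CPM in MYO5BΔIEC enteroids. It had 160, 159, 227 and 135 CPM in MYO5B(G519R) and 225, 187, 355 and 266 CPM in Compound-1-treated MYO5BΔIEC cultures. Control culture 1 was again the highest control, and it lay above 3 of the MYO5B(G519R) cultures but below all 8 MYO5BΔIEC cultures, treated or not. Tgfbr2 rose 2.05-fold in MYO5BΔIEC (log2 1.04 ± 0.25 SE, edgeR adjusted p = 0.0115) and 2.49-fold in Compound-1-treated MYO5BΔIEC enteroids against control (1.32 ± 0.28, edgeR adjusted p = 0.0089). In MYO5B(G519R) the value of 0.71 ± 0.26 missed the threshold (edgeR adjusted p = 0.0686) and passed without control culture 1 (1.07, edgeR adjusted p = 0.000581). It also passed in DESeq2 (adjusted p = 0.0292) and in edgeR with no count filter, in 1 fit of all 16 libraries and with a block on replicate numbers (adjusted p = 0.0488, 0.0420 and 0.0443).

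The 250 bases before the annotated starts of the receptors with opposite changes are shown because Smad complexes bind short DNA motifs. A RefSeq window was used for 7 of the 10 genes (GRCm38.p6). Smad7, which also changed, was left out of the search. Among the 7, Tgfbr1 and Tgfbr2 are those that changed and whose start lay within 3 bases of that in the count table. Capitals mark GTCTG or its reverse complement CAGAC, the Smad box, and the GC-rich motif GGCGCC, searched on both strands. The sequences are given 5′ to 3′ on the strand of the gene, chr4:47352972-47353221 (+) for Tgfbr1 and chr9:116175364-116175613 (−) for Tgfbr2:
Tgfbr1: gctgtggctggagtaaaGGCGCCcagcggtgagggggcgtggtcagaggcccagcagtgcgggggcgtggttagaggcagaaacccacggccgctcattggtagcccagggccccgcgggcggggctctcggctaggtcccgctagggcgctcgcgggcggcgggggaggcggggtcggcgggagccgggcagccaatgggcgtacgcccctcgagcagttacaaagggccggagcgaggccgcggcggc
Tgfbr2: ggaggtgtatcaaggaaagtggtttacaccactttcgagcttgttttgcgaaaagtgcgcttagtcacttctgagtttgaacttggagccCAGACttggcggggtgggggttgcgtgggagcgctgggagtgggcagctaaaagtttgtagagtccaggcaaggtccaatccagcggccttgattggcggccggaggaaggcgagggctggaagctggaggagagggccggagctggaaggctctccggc
The Tgfbr1 window was 74.8% GC with 1 GC-rich motif starting at −233 from the start, and the Tgfbr2 window was 58.4% GC with 1 Smad box at −160. Over 32851 windows of the same length, 42.2% held a Smad box and 9.59% the GC-rich motif, so the Smad box is common in such windows. Of the other windows, 1 at a second annotated start of Tgfbr1, 32994 bases inside the gene, held 1 Smad box, that of Id3 held 2 Smad boxes, those of Id2 and Bmpr1a held 1 GC-rich motif each, and those of Smad6 and Bmp4 held neither. A match of these letters describes the sequence and not a binding site.

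Bmpr1a, the type I BMP receptor, lies on chromosome 14 (34410734-34503341) and did not pass in any comparison. It had 206, 178, 182 and 155 CPM in control and 160, 164, 236 and 151 CPM in MYO5BΔIEC enteroids. It had 172, 171, 172 and 135 CPM in MYO5B(G519R) and 209, 139, 120 and 150 CPM in Compound-1-treated MYO5BΔIEC cultures. The ranges of all 4 groups overlapped. The log2 values against control were −0.01 ± 0.17 SE in MYO5BΔIEC, −0.15 ± 0.13 in MYO5B(G519R) and −0.22 ± 0.19 with Compound-1 (edgeR adjusted p = 0.965, 0.428 and 0.395). The antisense gene Gm17110, which overlaps Bmpr1a, had a mean of 0.229 CPM.

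Of the inhibitory Smads, Smad7 rose and Smad6 did not pass. Smad7, which recruits ubiquitin ligases to the receptors, had 6.17, 5.72, 4.20 and 4.41 CPM in control and 12.0, 9.23, 8.71 and 6.45 CPM in MYO5BΔIEC enteroids. It had 9.08, 8.58, 8.32 and 7.78 CPM in MYO5B(G519R) and 8.81, 8.83, 19.1 and 11.8 CPM in Compound-1-treated MYO5BΔIEC cultures. Every culture with induced Cre lay above every control. Smad7 rose 1.79-fold in MYO5BΔIEC (log2 0.84 ± 0.23 SE, edgeR adjusted p = 0.0233), 1.65-fold in MYO5B(G519R) (0.72 ± 0.18, adjusted p = 0.0152) and 2.37-fold with Compound-1 against control (1.24 ± 0.28, adjusted p = 0.0108). The MYO5BΔIEC call was lost without control culture 3 or 4 or MYO5BΔIEC culture 1 or 2 (edgeR adjusted p = 0.0604 to 0.0766), and the MYO5B(G519R) call without control culture 3 (edgeR adjusted p = 0.0523). Smad6, on chromosome 9 (63953076-64022059), ranged from 1.03 to 2.92 CPM in control and 2.12 to 3.11 CPM in MYO5B(G519R) cultures, and in MYO5BΔIEC from 1.17 to 3.05 without and 0.656 to 3.55 with Compound-1. These ranges overlapped throughout, and the edgeR adjusted p against control was 0.798, 0.498 and 0.663.

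The Id genes encode helix-loop-helix proteins without a DNA-binding domain that hold back differentiation factors. Id1, on chromosome 2 (152736251-152737410), had 5.17, 12.3, 10.8 and 9.37 CPM in control and 9.34, 10.9, 7.79 and 6.84 CPM in MYO5BΔIEC enteroids. It had 11.1, 9.26, 11.8 and 11.7 CPM in MYO5B(G519R) and 10.5, 16.3, 23.4 and 21.4 CPM in Compound-1-treated MYO5BΔIEC cultures. Control culture 1 was the lowest of the 16, and with Compound-1 the cultures 2, 3 and 4 lay above every other culture. Id1 rose against control with Compound-1, 1.90-fold (log2 0.93 ± 0.31 SE, edgeR adjusted p = 0.0447), while the values were −0.10 ± 0.27 in MYO5BΔIEC and 0.22 ± 0.24 in MYO5B(G519R) (edgeR adjusted p = 0.814 and 0.545). The Compound-1 call was lost without any of control cultures 2, 3 and 4 or treated cultures 2, 3 and 4 (edgeR adjusted p = 0.0510 to 0.124). With every library kept it was lost in limma on log2(FPKM + 1) and log2(FPKM + 0.1) (adjusted p = 0.0554 and 0.0524).

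Id3, on chromosome 4 (136143497-136145755), had 3.73, 4.05, 3.01 and 2.67 CPM in control and 4.28, 5.54, 4.74 and 4.92 CPM in MYO5BΔIEC enteroids. It had 5.37, 3.94, 6.20 and 5.37 CPM in MYO5B(G519R) and 8.54, 6.86, 16.1 and 12.5 CPM in Compound-1-treated MYO5BΔIEC cultures. The 4 treated cultures were the highest of the 16. Id3 rose 3.27-fold with Compound-1 against control (log2 1.71 ± 0.29 SE, edgeR adjusted p = 0.0048). In MYO5BΔIEC the value of 0.54 ± 0.22 missed the threshold in edgeR (adjusted p = 0.0860) and passed in DESeq2 (adjusted p = 0.0445), and in MYO5B(G519R) 0.63 ± 0.22 missed it in edgeR (adjusted p = 0.0551). The MYO5B(G519R) value passed under 5 of 10 alternatives that keep every library: DESeq2 (adjusted p = 0.0145), its size factors in edgeR (0.0482), removal of the length trend in edgeR (0.0387) and both limma fits (0.0404 and 0.0419). It also passed in edgeR without control culture 1 (adjusted p = 0.0247). Id2, on chromosome 12 (25093799-25097140), had the highest control mean per length of the 3 and passed in no comparison. It ranged from 19.8 to 24.8 CPM in control and 17.4 to 26.8 CPM in MYO5B(G519R) cultures, and in MYO5BΔIEC from 15.7 to 32.6 without and 21.1 to 28.3 with Compound-1, with an edgeR adjusted p against control of 0.639, 0.595 and 0.683.

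Compound-1 was compared with vehicle in MYO5BΔIEC enteroids to see whether the agonist moved these genes. No member passed in the edgeR quasi-likelihood test, and neither did any of the 18037 genes tested (0.0%). At an unadjusted p under 0.05, 2 of the 9 members were higher, Id1 and Id3, where 7.51% of all genes were past it (3.42% higher), and Id3 alone did not overlap between groups, as for 2.86% of genes. The mean of Id1 was 17.9 ± 5.75 CPM (SD) with Compound-1 against 8.73 ± 1.80 with vehicle, a ratio of 2.00 (log2 1.00 ± 0.26 SE, edgeR adjusted p = 0.532). The mean of Id3 was 11.01 ± 4.14 against 4.87 ± 0.522 CPM, a ratio of 2.20 (log2 1.14 ± 0.27, edgeR adjusted p = 0.532). DESeq2, which called 91 genes in this comparison, called both, Id1 at an adjusted p of 0.0474 and Id3 at 0.0237. Its call of Id1 was kept only without Compound-1 culture 1 (adjusted p = 0.000465) or 2 (0.0302) among the 8 cultures left out in turn, and that of Id3 only without Compound-1 culture 1 (0.0042) or 2 (0.000166) or vehicle culture 4 (0.0289). The other 7 members had log2 values between −0.52 for Smad6 and 0.38 for Smad7 (edgeR adjusted p of 0.866 or more), with standard errors from 0.15 to 0.50, which does not show that they did not differ. Tgfbr1 differed by 0.04 ± 0.15 and Bmp2 by −0.23 ± 0.24.

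**Figure D3:**
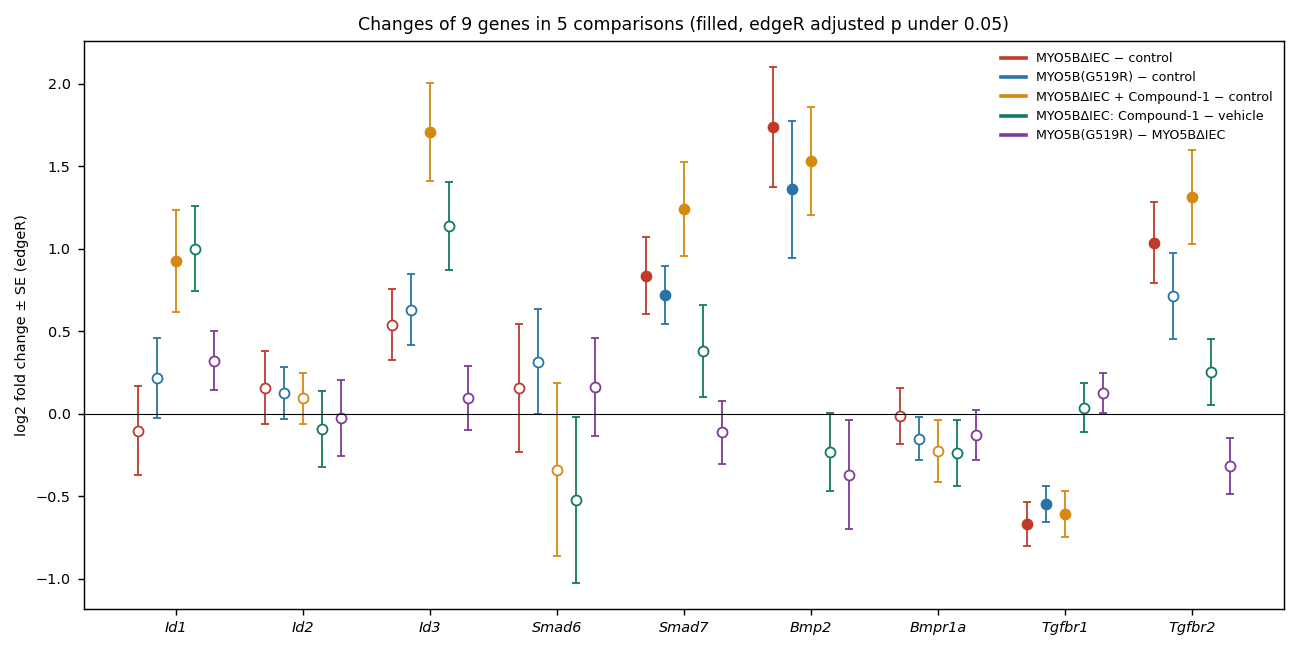
Log2 fold change ± SE (edgeR) of 9 genes in 5 comparisons, filled where the adjusted p was under 0.05. The 3 comparisons with control lie above 0 for Bmp2, Tgfbr2 and Smad7 and below 0 for Tgfbr1, and Id1 and Id3 lie near 1 for Compound-1 against vehicle without passing.

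Between the MYO5B(G519R) and MYO5BΔIEC enteroids no member passed in edgeR, where 0.00557% of 17943 genes did, none was at an unadjusted p under 0.05 (4.3% of all genes were), none had groups that did not overlap (1.85% of all genes) and none passed in DESeq2. The edgeR adjusted p of the members was 0.838 or more, and the log2 values of MYO5B(G519R) minus MYO5BΔIEC ran from −0.37 ± 0.33 SE for Bmp2 to 0.32 ± 0.18 for Id1. Tgfbr2 differed by −0.32 ± 0.17.

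The other genes of the pathways were read from 8 lists by role, 103 genes in all. Of these 65, 63 and 63 were tested against control in MYO5BΔIEC, MYO5B(G519R) and Compound-1-treated enteroids, and 8, 6 and 8 of them reached the count minimum in only 1 of the groups compared. Such a gene is tested only because it is high in that group, so these genes are left out of the counts by role. Of the others in MYO5BΔIEC 17 of 57 rose and 5 fell, or 38.6% called beside 29.4% of all genes with enough counts in both groups, with a median log2 value of 0.29 beside −0.03. In MYO5B(G519R) 15 of 57 rose and 4 fell, or 33.3% beside 28.9%, with a median of 0.34 beside −0.06. In Compound-1-treated MYO5BΔIEC enteroids 17 of 55 rose and 3 fell, or 36.4% beside 31.2%, with a median of 0.33 beside −0.06. Over all tested pathway genes, those tested through 1 group included, the calls numbered 26, 20 and 25, and without control culture 1 they numbered 37, 38 and 35. Calls over all genes then numbered 7474, 8146 and 7459, beside 4910, 4778 and 5275 with that culture. The pathway calls numbered 15 or 16 in MYO5BΔIEC without control culture 3 or 4 or MYO5BΔIEC culture 2. In MYO5B(G519R) they numbered 11 to 13 without control culture 3 or 4 or MYO5B(G519R) culture 2 or 3, and with Compound-1 they numbered 16 without control culture 3 or treated culture 4. Over all genes the calls in these settings numbered 2963 to 2983, 2880 to 3192, and 2957 and 3020, in the same order.

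Among the ligands, Bmp8b rose in all 3 comparisons, from a mean of 7.81 CPM in control to 38.9 CPM in MYO5BΔIEC (log2 2.32 ± 0.46 SE, edgeR adjusted p = 0.0055). It is a near copy of Bmp8a, and reads may be split between them. Of the 4 BMP ligands beside the members with enough counts in both groups, Bmp8b alone passed in each comparison with control. That was 25.0% called in each, beside 29.4%, 28.9% and 31.2% of all such genes. Bmp8a, at a mean of 0.198 CPM in control, was tested only through the group where it was higher. Of the TGF-beta and activin ligands, Gdf15, a stress-induced member of the family, rose in MYO5BΔIEC (1.48 ± 0.37, edgeR adjusted p = 0.0142) and with Compound-1 against control. Tgfb1 rose against control with Compound-1 (1.42 ± 0.36, edgeR adjusted p = 0.0157), and Gdf9 fell in MYO5B(G519R) and with Compound-1. In MYO5BΔIEC, MYO5B(G519R) and Compound-1-treated enteroids 5, 5 and 4 genes of this list had enough counts in both groups. Of these 1, 0 and 2 rose and 0, 1 and 1 fell. The share called lay below the 29.4% and 28.9% of all such genes in MYO5BΔIEC and MYO5B(G519R). With Compound-1 it lay above 31.2%, on 3 of 4 genes. No count of Bmp5, Bmp15, Gdf2, Gdf5, Mstn or Gdf10 was found in any library.

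Of 8 receptors and coreceptors with enough counts in both groups, 2 rose and 1 fell in MYO5BΔIEC, 2 rose in MYO5B(G519R), and 1 rose with Compound-1 against control. These shares of 37.5%, 25.0% and 12.5% stood beside 29.4%, 28.9% and 31.2% of all such genes, and the last 2 lay below them. Acvr1b, a type I activin receptor, rose in all 3, by 0.77 ± 0.14 SE on the log2 scale in MYO5BΔIEC (edgeR adjusted p = 0.0043). Acvrl1, a receptor of endothelial BMP signaling, rose in MYO5BΔIEC and MYO5B(G519R) from a low control mean of 1.02 CPM, and Acvr1c fell in MYO5BΔIEC (−0.68 ± 0.22, edgeR adjusted p = 0.0414). Hfe2 and Tdgf1, both coreceptors, were at 0 counts in all libraries.

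Among the 5 tested receptor Smads and Smad4, Smad3, the carrier of the TGF-beta signal, rose in all 3 comparisons. Its mean was 29.4 CPM over controls, against 52.8 for MYO5BΔIEC, 48.6 for MYO5B(G519R) and 57.8 with Compound-1 (log2 0.85 ± 0.20 SE, 0.72 ± 0.19 and 0.98 ± 0.25, edgeR adjusted p = 0.0116, 0.0224 and 0.0159). Control culture 1, at 43.9 CPM, was above the other controls at 23.8 to 25.0 CPM. Smad5, which carries the BMP signal, fell in MYO5BΔIEC (−0.37 ± 0.12, edgeR adjusted p = 0.0478). Smad1, Smad2 and Smad4 passed in none of the 3.

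Of 6 secreted and membrane inhibitors with enough counts in both groups, 1 rose and 1 fell in each comparison with control. That was 33.3% called in each, beside 29.4%, 28.9% and 31.2% of all such genes. Nbl1, a secreted BMP antagonist, rose from a mean of 5.25 CPM in control to 14.0 in MYO5BΔIEC, 15.7 in MYO5B(G519R) and 37.8 CPM with Compound-1 (log2 1.42 ± 0.29 SE, 1.58 ± 0.33 and 2.85 ± 0.42, edgeR adjusted p = 0.0062, 0.0077 and 0.0040). Bambi, a pseudoreceptor that blocks TGF-beta signaling, fell in all 3 (−0.76 ± 0.25, −0.82 ± 0.20 and −0.71 ± 0.23, edgeR adjusted p = 0.0462, 0.0142 and 0.0424). Fst, the activin inhibitor follistatin, named after its values were seen, had means of 0.0838 CPM in control and 0.518, 0.573 and 1.17 CPM in these groups, and was tested only through the group where it was higher. Nog, the gene of the Noggin that the medium supplies, was at 0 counts in all 16 libraries, as were Chrdl1, Chrdl2, Sostdc1 and Cer1.

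Genes for the latency and activation of TGF-beta had rises and no falls among the 7 with enough counts in both groups, 3, 2 and 3 of them. These were 42.9%, 28.6% and 42.9% called, beside 29.4%, 28.9% and 31.2% of all such genes. Itgav, the integrin subunit that frees TGF-beta from its latent form, rose in all 3 (log2 1.23 ± 0.25 SE in MYO5BΔIEC, edgeR adjusted p = 0.0062). Thbs1, a matrix protein that also activates it, rose in MYO5BΔIEC and with Compound-1, and Furin, the protease that cleaves the precursor, rose in all 3 (1.14 ± 0.18 in MYO5B(G519R), edgeR adjusted p = 0.0033). Ltbp1, named after its values were seen, was at means of 0.238 CPM in MYO5BΔIEC and 0.332 with Compound-1 beside 0.0166 in control, and was tested only through the group where it was higher. The list of 13 intracellular inhibitors also held Usp15, which is not an inhibitor. Of these 13 genes 4 rose and 2 fell in MYO5BΔIEC, 3 rose and 2 fell in MYO5B(G519R), and 4 rose and 1 fell with Compound-1. These were 46.2%, 38.5% and 38.5% called, beside the same shares of all genes. The fall with Compound-1 was that of Usp15. Smurf1, a ubiquitin ligase for Smads, and Pmepa1, a TGF-beta target that sequesters SMAD2 and SMAD3, rose in all 3 (0.85 ± 0.14 and 0.98 ± 0.24 in MYO5BΔIEC, edgeR adjusted p = 0.0029 and 0.0123). Usp15, a deubiquitinase of the receptors, fell in all 3 and Strap, a partner of SMAD7, in MYO5BΔIEC and MYO5B(G519R).

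The further target genes of the pathways all answer to other signals as well. Of those with enough counts in both groups, 4 of 10 rose in MYO5BΔIEC, 5 of 10 in MYO5B(G519R) and 4 of 9 with Compound-1. None of these fell at the threshold. Over all such genes 29.4%, 28.9% and 31.2% were called, in the same order. Of the 11 targets tested in each comparison, those tested through 1 group included, 3, 3 and 4 had values below 0. In each comparison 1 of them was lower at an unadjusted edgeR p under 0.05. Ctgf, a matricellular protein, rose most of those named, by 2.78 ± 0.38 SE on the log2 scale in MYO5BΔIEC, 2.47 ± 0.44 in MYO5B(G519R) and 3.35 ± 0.50 with Compound-1 (edgeR adjusted p = 0.0017, 0.0046 and 0.0040). Cdkn1a, a cell cycle inhibitor, rose in all 3, by 1.70 ± 0.22 in MYO5BΔIEC and 1.44 ± 0.22 with Compound-1 (edgeR adjusted p = 0.0015 and 0.0040). Cdkn2b, of the same role, and Cyr61, a relative of Ctgf, also rose in all 3. Msx1, at means of 0.218 CPM in control, 0.897 in MYO5BΔIEC and 0.796 with Compound-1, was tested only through the group where it was higher, as was Snai2 with Compound-1, at 0.939 CPM in control and 0.134 with Compound-1. These 4 genes were named after their values were seen. Id4 was near 1 CPM and passed in none of the 3.

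**Figure D4:**
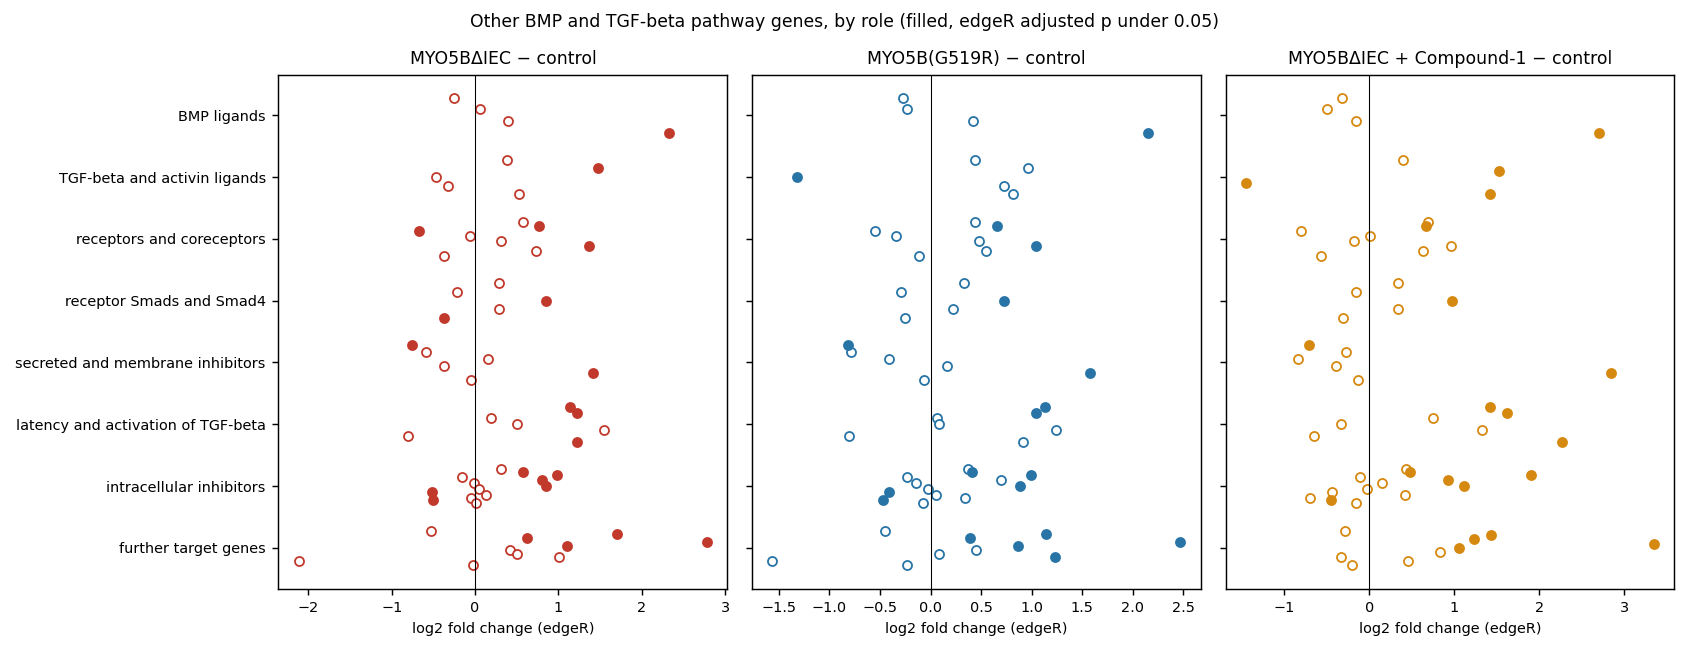
Log2 fold change (edgeR) of the other pathway genes with enough counts in both groups, by role, in each comparison with control, filled where the adjusted p was under 0.05. Rises outnumber falls among the filled points in all 3 panels (17 and 5, 15 and 4, and 17 and 3). Filled points of the latency and activation genes are rises alone. Over all genes with enough counts in both groups 2257 rose and 2437 fell, 2224 and 2391, and 2584 and 2357, in the same order.

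For Compound-1 against vehicle 65 of the pathway genes were tested and none passed in edgeR. At an unadjusted p under 0.05, 5 were higher (Tgfb1, Nbl1, Pmepa1, Cdkn2b and Itgb6) and 1 lower (Acvr2b), or 6 of 65 beside 7.51% of all genes, and DESeq2 called Nbl1 alone. Nbl1 had 18.7, 13.9, 11.4 and 11.9 CPM with vehicle and 27.3, 21.7, 72.1 and 30.1 CPM with Compound-1, without overlap (log2 1.40 ± 0.34 SE, edgeR adjusted p = 0.532). Culture 3 with Compound-1 had the highest value of Nbl1, Id1, Id3, Smad7 and Tgfbr2 among the treated cultures. Tgfb1 was at 8.31 against 4.46 CPM (edgeR adjusted p = 0.532) and Pmepa1 at 43.0 against 22.6 CPM (edgeR adjusted p = 0.550), also without overlap.

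**Figure D5:**
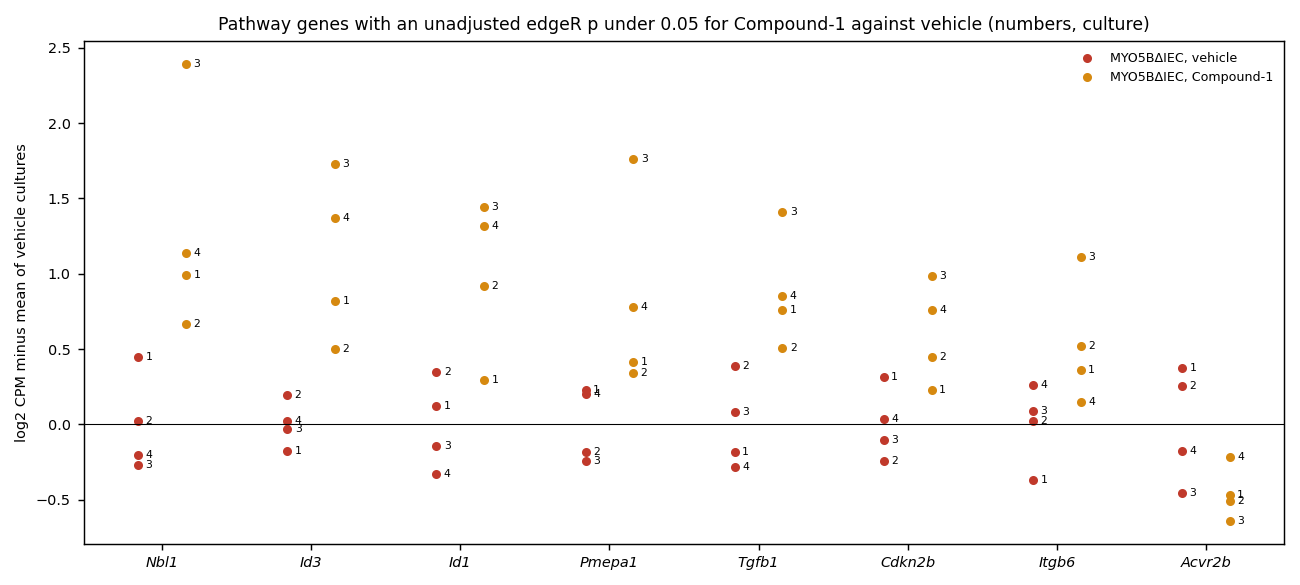
Log2 CPM of each MYO5BΔIEC culture minus the mean of the 4 vehicle cultures, for the 8 members and pathway genes at an unadjusted edgeR p under 0.05, with the culture number beside each point. The genes were picked by this p, culture 3 with Compound-1 is the highest for the first 7 and the lowest for Acvr2b, and none passed after adjustment.

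Lists outside the pathway were read beside these results. Of 9 villus tip enterocyte genes 4, 4 and 3 rose against control in MYO5BΔIEC, MYO5B(G519R) and Compound-1-treated enteroids and none fell. These were 44.4%, 44.4% and 33.3% called, beside 29.4%, 28.9% and 31.2% of all genes with enough counts in both groups. In each comparison 2 of the 9 values were below 0. In MYO5B(G519R) and with Compound-1, 1 gene was lower at an unadjusted edgeR p under 0.05. Ada, a purine enzyme of the villus tip, rose by 2.15 ± 0.28 SE on the log2 scale in MYO5BΔIEC, 1.90 ± 0.33 in MYO5B(G519R) and 2.05 ± 0.42 with Compound-1 (edgeR adjusted p = 0.0015, 0.0041 and 0.0075). Slc28a2, a nucleoside transporter, rose in MYO5BΔIEC and MYO5B(G519R), and Klf4, a differentiation factor, in all 3. Of 9 stem and proliferation genes 4, 3 and 3 fell and none rose, or 44.4%, 33.3% and 33.3% called beside the same shares of all genes. Olfm4, a crypt stem cell gene, led these at −2.26 ± 0.51 in MYO5BΔIEC, −1.63 ± 0.41 in MYO5B(G519R) and −2.48 ± 0.48 with Compound-1 (edgeR adjusted p = 0.0090, 0.0174 and 0.0063), and Pcna fell in all 3. Other genes of this list did not pass: in MYO5B(G519R) the stem cell genes Lgr5 and Smoc2 and the proliferation gene Mki67 had log2 values of 0.30, 0.30 and 0.20 (edgeR adjusted p = 0.431, 0.191 and 0.221), 4 of the 9 values were above 0 and the median was −0.05, beside medians of −0.38 in MYO5BΔIEC and −0.30 with Compound-1. Of 9 epithelial markers 5, 3 and 6 rose, among them Vil1 in all 3, and 1 fell, Fabp1 with Compound-1 (−2.38 ± 0.66, edgeR adjusted p = 0.0225). These were 55.6%, 33.3% and 77.8% called, beside the same shares of all genes. The part of these marker changes in those of the 10 genes was not tested, and fewer cells of a type cannot be told apart from less RNA per cell in bulk cultures. The summed level of 9 endothelial and immune markers was 4.72 to 5.96 CPM in control, 5.85 to 7.18 in MYO5B(G519R), and 6.26 to 12.0 without and 5.95 to 10.3 with Compound-1 in MYO5BΔIEC, most of it Cd68, which rose in MYO5BΔIEC (1.09 ± 0.33, edgeR adjusted p = 0.0332), and 7 of the 9 had a mean under 1 CPM. The fibroblast and smooth muscle markers summed to 0.667 to 2.02 CPM over the 16 cultures, and none with enough counts in both groups passed against control. Col1a1, at a mean of 0.317 CPM in MYO5B(G519R) beside 0.0562 in control, was tested there only through the group where it was higher.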

How the data were processed

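Bulk RNA of 16 enteroid cultures was sequenced, and the labels gave the groups. Reads were aligned by the authors with STAR 2.5 to GRCm38/mm10 (TopHat is also named), who made the deposited counts per gene with HTSeq 0.6.1. The authors derived the deposited FPKM from these counts and gene length. The annotation release, strand setting and treatment of multiply mapped reads are not given in the sources used here. Gene columns hold whole-gene counts, with no isoform or protein level.

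The deposited counts were analysed with edgeR 4.0.16 (R 4.3.3): TMM scaling, a minimum of 10 counts in 2 or more of a comparison's 8 libraries, the quasi-likelihood F test on the log2 scale, and Benjamini-Hochberg adjustment over all genes tested with a threshold of 0.05. Each comparison was fitted on its own libraries, with no covariate. Scripts were tested on simulated data. Alternatives were DESeq2 1.42.0, its size factors, other count filters, library sizes without mitochondrially encoded genes, all 16 libraries in 1 fit, limma 3.58.1 on log2(FPKM + 1) and log2(FPKM + 0.1), removal of a gene-length trend, a block on the replicate number and leaving out each library. Leaving out each library under DESeq2, and counting list genes only where both groups reach the count minimum in 2 or more libraries, were added after seeing the data.

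The 10 genes and the lists were chosen with earlier results of these data known. Named genes are the members, in each list up to 2 genes with the largest rise and 2 with the largest fall among those called with a mean of 1 CPM or more, genes at 0 in all libraries, the 3 genes most like each member by Spearman rho, Myo5b, Nog and the leading gene of each marker list. Other genes, such as those at an unadjusted p under 0.05 with Compound-1, were named after their values were seen. The replicate numbers of the titles did not pair the cultures in every comparison, though same-numbered MYO5B(G519R) and MYO5BΔIEC cultures were partly alike.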

Additional observations from a re-analysis of the deposited data

Results flagged for a closer look

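Among 36 groups of 4 CPM values of the 9 tested genes, a single culture lay far from the other 3 in 4 groups, where chance gives about 1 in 20. Bmp2 was at 19.4 CPM in control culture 1, the highest of its group. Bmpr1a was at 236 CPM in MYO5BΔIEC culture 3, the highest of its group. Bmpr1a was at 135 CPM in MYO5B(G519R) culture 4, the lowest of its group. Id2 was at 17.4 CPM in the same MYO5B(G519R) culture 4, also the lowest of its group.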

How the results depend on the processing

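Under the alternatives that keep all libraries, 431 values of the 9 members kept their direction and side of the threshold, 12 newly passed it, 3 no longer did and 4 changed sign. With 1 library left out these numbers were 384, 7, 17 and 24. Where a count moved, the cause was not tested. DESeq2 called 5 members and 31 pathway genes in MYO5B(G519R) against control, where it called 5803 genes over all. For Compound-1 against vehicle it called 91 genes over all, 2 members and 1 pathway gene, and edgeR without a count filter called 12 genes. For MYO5B(G519R) against MYO5BΔIEC DESeq2 called 4 genes, no filter 2 and both limma fits 0.

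With 1 library left out, the calls against control over all genes numbered 2880 to 8146 for MYO5B(G519R), 2963 to 7474 for MYO5BΔIEC and 2957 to 7459 with Compound-1. Pathway calls ranged from 11 to 38, 15 to 37 and 16 to 35, and member calls from 1 to 5, 3 to 4 and 5 to 6, in the same order. The highest counts of all and pathway genes were those without control culture 1, which also gave 5, 4 and 6 members. Between MYO5B(G519R) and MYO5BΔIEC the count ran from 0 to 2.

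The signs of values near 0 were not stable. For MYO5BΔIEC against control Id1 was 0.22 without the length trend. With 1 library left out it ran from −0.30 to 0.057, Id2 from −0.014 to 0.32, Smad6 from −0.069 to 0.38 and Bmpr1a from −0.18 to 0.060. Id2 ran from −0.011 to 0.15 with Compound-1 against control. Against vehicle Id2 ran from −0.26 to 0.077 and Tgfbr1 from −0.063 to 0.12. The highest Id2 in edgeR was 0.074, DESeq2 gave Id2 0.021 without vehicle culture 2 and 0.077 without culture 3, and it gave Tgfbr1 −0.025 without vehicle culture 2 and −0.057 without treated culture 1. For MYO5B(G519R) against MYO5BΔIEC Id2 ran from −0.19 to 0.15, Smad6 from −0.060 to 0.32, Smad7 from −0.25 to 0.056 and Bmpr1a from −0.20 to 0.044. Id2 there was 0.0064 and 0.010 in limma.

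The replicate numbers did not pair the cultures in every comparison: same-numbered deviations correlated at −0.19 to 0.52, over 0.1 in 6 of 24 pairs, and 7 of 24 correlated best with their own number. Between MYO5B(G519R) and MYO5BΔIEC 3 of 4 pairs were over 0.1 (0.118, 0.414 and 0.524), each best with its own number, and the other was at 0.0574. The block there moved genes at an unadjusted p under 0.05 from 772 to 2532, with 1 called in both. A shared origin of these same-numbered cultures was not tested. With the replicate number as a block 4, 4 and 6 members passed against control, over all genes 3647, 3691 and 4401, Tgfbr2 passed in MYO5B(G519R) (edgeR adjusted p = 0.0443), and Id2 of MYO5B(G519R) against MYO5BΔIEC was 0.0059. Low counts limit Smad6 (23 to 106 per library) and Bmp4.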

Other observations

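Over the 16 cultures, which share 4 groups and therefore any difference between them, the genes most like each member among 13536 were ranked by the Spearman rho of CPM, as a description. Bmp2 was most like 2010109I03Rik (0.979), Rhob (0.971) and Nr1d1 (0.962). Tgfbr2 was most like Chp1 (0.971), Ttll1 (0.968) and Dlgap1 (0.965), and Tgfbr1 most like Ndc80 (0.965), Dek (0.962) and Pds5b (0.956). Smad7 was most like Dvl1 (0.965), Rhot2 (0.944) and Rras (0.935), and Id3 most like Tinagl1 (0.947), Plaur (0.941) and Krt80 (0.935). Bmpr1a was most like Tbc1d32 (0.941), Piga (0.912) and Snhg14 (0.903). The nearest genes were less alike for Id2 (Aph1b 0.876, Zfp169 0.871, Ankrd37 0.8294), Smad6 (Tert 0.838, Dnah8 0.818, Mapk13 0.797) and Id1 (Mlkl 0.774, 1700066B19Rik 0.768, Pick1 0.765).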
